A study of Mus musculus with 2 samples.

Results

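The Elavl, Celf and Musashi genes encode RNA-binding proteins that steer messages after transcription, and 10 of them were described here in the forebrain of the mouse embryo. They were taken by name from the deposited gene tables as Elavl1 to Elavl4, Celf1 to Celf4, Msi1 and Msi2. All 10 were found among 21461 nuclear protein-coding genes, with 91 transcript models in the transcript tables, of which 62 are annotated as protein-coding. The series consists of total RNA sequencing of 2 libraries in 1 group. Each library came from 1 forebrain of a B6NCrl embryo, a C57BL/6 substrain, at embryonic day 14.5, and the labels name no treatment, transgene or mutation. The labels number the forebrains as biological replicates 1 and 2 and are here called embryo 1 and embryo 2. They give different collection days but the same donor identifier, and they call the sex pooled although each sample is 1 forebrain.

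Elavl proteins, also called Hu proteins, bind AU-rich and U-rich stretches in introns and in the trailing regions of messages, where they act on splicing, stability and translation. Elavl1 (HuR) is found in most cell types, while Elavl2 (HuB), Elavl3 (HuC) and Elavl4 (HuD) are known as neuronal members. Celf proteins bind GU-rich stretches and regulate splicing and decay. Celf1 and Celf2 are broadly expressed, and Celf3 and Celf4 are known mainly from the nervous system. Musashi proteins bind short UAG-containing motifs and regulate translation, and Msi1 is a classical protein of neural stem and progenitor cells.

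Total depth was 35310017 expected counts (estimated read numbers) for embryo 1 and 29250404 for embryo 2, and the members held between 1385 and 18122 each. Levels are in TPM, a share of all transcripts that takes their length into account, so genes of 1 library can be set side by side. Errors are SDs of the 2 libraries (n = 2), and no test between groups was possible (the smallest p an exact test can give with 2 libraries is 0.5). Genes were called apart where the TPM intervals that the authors deposited did not overlap. The level of these intervals is not given in the sources used here, and they describe the estimate in 1 library and not the spread between embryos. All 8 neuron markers, all 8 progenitor markers and all 7 forebrain markers examined were at 1 TPM or more in both libraries. The hindbrain genes Hoxa3 and Hoxb3 were at 0 in both libraries, and En2 was at 0.01 and 0.02 TPM. In bulk tissue, fewer cells of a type and less RNA per cell cannot be told apart.

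Several of the results below turn on exons and start sites that distinguish the transcript models, and those sequences are given here. Elavl2 and Elavl4 each have an alternative coding exon of 39 nt. The Elavl2 exon lies at chr4:91254141-91254179 on the minus strand and the Elavl4 exon at chr4:110209740-110209778 on the minus strand (GRCm38, GENCODE M21 models). The sequences are shown 5′ to 3′ because the pair is alike in length and sequence. They are identical at 33 of 39 bases (84.6%), and capitals mark the 6 bases that differ.
Elavl2 39-nt exon: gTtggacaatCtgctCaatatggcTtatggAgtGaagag
Elavl4 39-nt exon: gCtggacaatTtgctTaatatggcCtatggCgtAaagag

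Celf2 has an alternative coding exon of 144 nt at chr2:6549832-6549975 on the minus strand, and Msi1 has one of 57 nt at chr5:115447130-115447186 on the plus strand. All 4 exons have a length divisible by 3. The Msi1 exon is the richest of the 4 in G and C (66.7%, against 45.1% for the Celf2 exon and 43.6% for each of the Elavl exons).
Celf2 144-nt exon: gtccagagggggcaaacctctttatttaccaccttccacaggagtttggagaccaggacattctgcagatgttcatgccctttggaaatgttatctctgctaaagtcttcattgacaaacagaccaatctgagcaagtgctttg
Msi1 57-nt exon: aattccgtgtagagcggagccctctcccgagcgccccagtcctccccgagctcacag

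The transcript models of Elavl2 start mainly in 2 regions of the gene, and the 250 bases before the start of the leading model of each are shown. They come from the RefSeq promoter table (GRCm38.p6), which held entries for 8 of the 10 genes. Elavl2-209 starts after chr4:91376497-91376746 and Elavl2-201 after chr4:91372056-91372305, both on the minus strand, with the table's start 1 base from that of the Elavl2-201 model. Capitals mark the letters of the GC box, GGGCGG, and of the box named CCAAT after its letters, on either strand, and no marked matches overlap.
Elavl2-209 promoter: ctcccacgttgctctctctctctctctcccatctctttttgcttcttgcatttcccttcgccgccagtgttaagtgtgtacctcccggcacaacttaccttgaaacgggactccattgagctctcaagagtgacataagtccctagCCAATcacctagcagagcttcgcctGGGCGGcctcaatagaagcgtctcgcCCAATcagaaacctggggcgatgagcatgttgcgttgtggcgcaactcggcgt
Elavl2-201 promoter: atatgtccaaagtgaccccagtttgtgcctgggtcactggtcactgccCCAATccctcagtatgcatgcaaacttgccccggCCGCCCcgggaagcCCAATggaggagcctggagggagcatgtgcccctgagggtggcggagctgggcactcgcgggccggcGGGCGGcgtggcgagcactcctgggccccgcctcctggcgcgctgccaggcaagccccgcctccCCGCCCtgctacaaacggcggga

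The Elavl2-209 window holds 1 GC box and the Elavl2-201 window 3, and each holds 2 CCAAT boxes. Among the 32851 windows of the table, 32.7% hold a GC box and 33.8% a CCAAT box. Neither window holds the letters TATAAA on either strand, which 12.4% of all windows hold. The share of G and C is 54.4% before Elavl2-209 and 69.6% before Elavl2-201, against a median of 52.4% over all windows. They hold 14 and 18 CG dinucleotides, against a median of 6. Such matches describe the letters only.

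All 10 genes were well expressed. The median of their mean TPM was 74.1, against 4.25 over nuclear protein-coding genes. All 10 reached 1 TPM in both libraries, as did 59.6% of nuclear protein-coding genes. Elavl4 stood at the top of the order and Msi2 at the bottom, as the plot of levels by library shows.

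**Figure D1:**
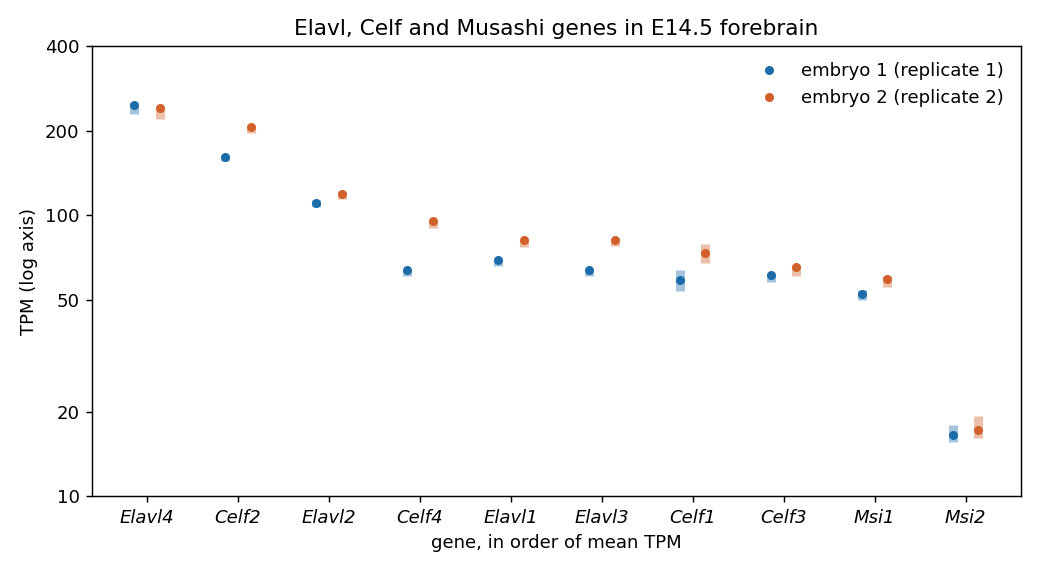
TPM of each gene (log axis) in embryo 1 (blue) and embryo 2 (orange), with the deposited TPM interval as a pale bar. Elavl4 lies at 245.74 and 239.61 TPM, Msi2 at 16.49 and 17.21 TPM, and the 6 genes from Celf4 to Msi1 in the order between 52.55 and 95.45 TPM.

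Elavl4 and Elavl2 were the highest of the Elavl genes, and Elavl3 lay level with the broadly expressed Elavl1. Elavl4 (ENSMUSG00000028546.13, chr4:110203722-110351909, minus strand) was at 245.74 TPM in embryo 1 and 239.61 in embryo 2 (243 ± 4.33, SD, n = 2). Elavl2 (ENSMUSG00000008489.14, chr4:91250763-91400785, minus strand) was at 110.49 and 119.08 TPM (115 ± 6.07), and both embryos therefore had more than a 2-fold gap from Elavl4. Elavl3 (ENSMUSG00000003410.7, chr9:22015005-22052023, minus strand) was at 63.59 and 81.83 TPM (72.7 ± 12.9). Elavl1 (ENSMUSG00000040028.9, chr8:4285382-4325413, minus strand), known for protecting messages from decay, was at 69.27 and 81.6 TPM (75.4 ± 8.72). Elavl1 and Elavl3 were therefore at nearly the same level, with intervals apart in embryo 1 and overlapping in embryo 2. The 3 neuronal genes summed to 419.82 and 440.52 TPM, and all 4 to 489.09 and 522.12 TPM.

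Among the Celf genes, Celf2 was the highest and the others lay close together. Celf2 (ENSMUSG00000002107.14, chr2:6539694-7509563, minus strand) was at 161.56 TPM in embryo 1 and 205.34 in embryo 2 (183 ± 31.0, SD, n = 2). Celf4 (ENSMUSG00000024268.11, chr18:25477632-25754157, minus strand) was at 63.7 and 95.45 TPM (79.6 ± 22.5), the largest relative spread of the 10 genes. Celf1 (ENSMUSG00000005506.12, chr2:90940382-91019497, plus strand) was at 58.61 and 73.16 TPM (65.9 ± 10.3). Celf3 (ENSMUSG00000028137.5, chr3:94478295-94492198, plus strand) was at 61.26 and 65.23 TPM (63.2 ± 2.81). The broadly expressed pair, Celf1 and Celf2, summed to 220.17 and 278.5 TPM, and the pair known from the nervous system, Celf3 and Celf4, to 124.96 and 160.68 TPM.

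The Musashi genes stood at the end of the order of mean TPM, although on protein-coding models alone Msi1 (52.01 and 58.58 TPM) was level with or above Celf1 (47.15 and 58.51 TPM). Msi1 (ENSMUSG00000054256.7, chr5:115429599-115455698, plus strand) was at 52.55 TPM in embryo 1 and 59.05 in embryo 2 (55.8 ± 4.60, SD, n = 2). Msi2 (ENSMUSG00000069769.9, chr11:88339382-88718513, minus strand), which binds similar motifs, was at 16.49 and 17.21 TPM (16.9 ± 0.509). Msi1 was 3.19-fold higher than Msi2 in embryo 1 and 3.43-fold higher in embryo 2. Together they summed to 69.04 and 76.26 TPM.

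Within families, 9 of 13 pairs of genes had intervals apart in the same direction in both embryos. The same held for 35 of all 45 pairs of the 10 genes and for 86.6% of all pairs of nuclear protein-coding genes whose mean was at least 5 TPM, so the share among the 10 genes was no higher than the background. In the order of mean levels, 5 of 9 neighbouring pairs were apart. Elavl4 exceeded Celf2 by 1.52-fold and 1.17-fold. Celf2 exceeded Elavl2 by 1.46-fold and 1.72-fold. Elavl2 exceeded Celf4 by 1.73-fold and 1.25-fold. At the lower end, Celf3 exceeded Msi1 by 1.17-fold and 1.10-fold.

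The 4 neighbouring pairs from Celf4 down to Celf3 were not separated. Celf4 over Elavl1 was 0.920 in embryo 1 and 1.17 in embryo 2, with intervals apart in opposite directions. The ratio of Celf1 over Celf3 went from 0.957 to 1.12, with intervals overlapping in embryo 1 and apart in embryo 2. Elavl3 over Celf1 was 1.08 and 1.12, with overlapping intervals in both embryos. The middle of the order is therefore a description of 2 libraries and not a ranking. The deposited TPM itself lay above its interval in 5 of the 20 values, namely both values of Elavl1 and Elavl3 and that of Celf4 in embryo 2. Over all genes whose mean was at least 5 TPM, 7.61% of values lay outside.

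The position of Elavl4 depended on which of its transcript models were counted. Only 121.34 TPM in embryo 1 and 118.86 TPM in embryo 2 were on protein-coding models, 49.4% and 49.6% of the gene's TPM. Over nuclear protein-coding genes at a mean of at least 5 TPM, the median share on protein-coding models was 98.4%, and 7.34% of genes were under 50%. Celf2 had 145.58 and 171.3 TPM on protein-coding models and Elavl2 had 103.13 and 107.71. On that scale Celf2 was the highest of the 10 genes in both embryos, and Elavl4 followed. With models of 1000 nt or more only, the mean of Elavl4 was 85.6 TPM, below that of Elavl2 at 104 TPM.

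**Figure D2:**
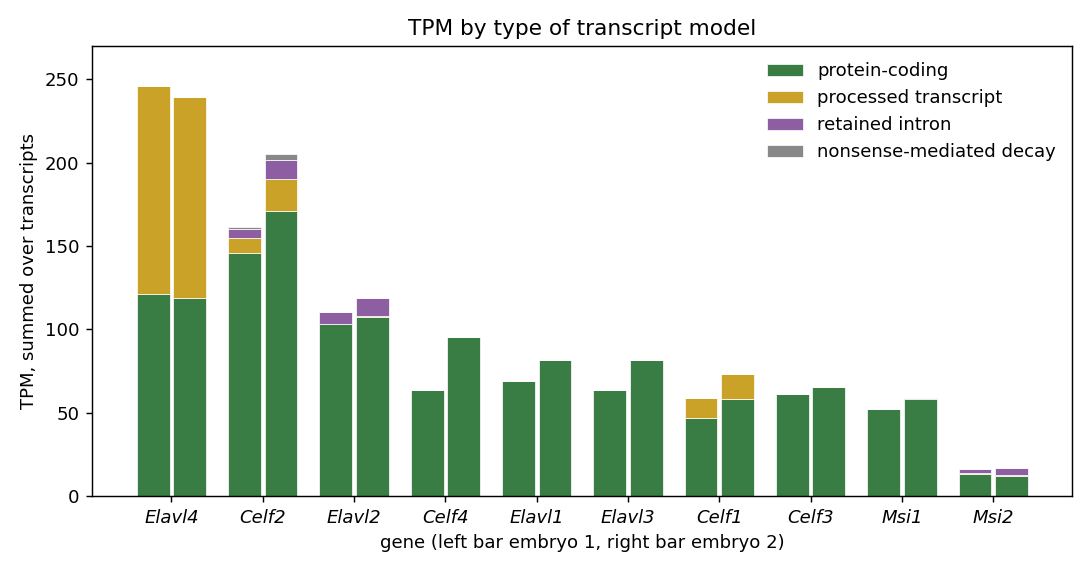
TPM of each gene summed over its transcript models by annotated type, with embryo 1 as the left bar and embryo 2 as the right bar. Elavl4 holds 124.4 and 120.76 TPM on processed transcripts, and Elavl1, Elavl3, Celf3 and Celf4 hold protein-coding models only.

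The other genes had smaller non-coding shares. Celf1 held 80.4% and 80.0% of its TPM on protein-coding models, with the rest on processed transcripts, models that carry no annotated reading frame. Its non-coding part was mainly Celf1-213, a model of 478 nt with 19.56% and 18.04% of the TPM but 1.45% (95% Wilson interval 1.19 to 1.75) and 1.33% (1.08 to 1.63) of the counts. Such Wilson intervals cover counting error only. All bases of Celf1-213 lie in other Celf1 models, and how reads were divided between the models was not tested. Its deposited TPM interval ran from 6.16 to 15.8 in embryo 1 and from 7.82 to 18.5 in embryo 2. Celf2 held 90.1% and 83.4% on protein-coding models, and Msi2 held 82.1% and 70.8%. Elavl2 held 93.3% and 90.5%, with 6.66% and 9.22% on models that retain an intron. Msi1 was at 99.0% and 99.2%.

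Elavl4 was led by a short non-coding model when ranked by TPM and by a long coding model when ranked by counts. Elavl4-211, a processed transcript of 869 nt, held 40.75% of the gene's TPM in embryo 1 and 37.8% in embryo 2. It held 17.5% (95% Wilson interval 16.7 to 18.2) and 16.0% (15.2 to 16.9) of the gene's expected counts, 1764.71 and 1228.7 counts. Elavl4-202, a protein-coding model of 4024 nt, held 23.61% and 24.44% of the TPM. Its counts were 5212.28 and 4049.51, or 51.6% (50.6 to 52.6) and 52.8% (51.7 to 53.9) of the gene's total. Of the 869 bases of Elavl4-211, 720 (82.9%) lie in the coding sequence of Elavl4-202, and 149 bases lie in no other Elavl4 model. How reads from the shared bases were divided between the models was not tested. Among genes with several models and a mean of at least 5 TPM, the leading model by TPM differed from that by counts for 11.4% in embryo 1, and 7.43% of protein-coding genes were led by a model that is not protein-coding in both libraries.

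**Figure D3:**
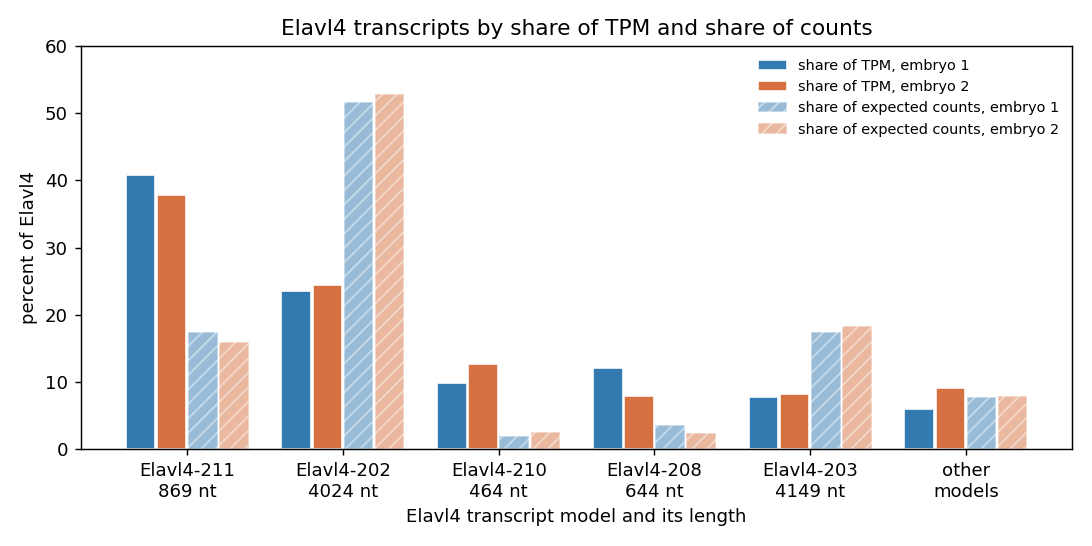
Share of Elavl4 held by its 5 leading transcript models and by the others together, as a percent of TPM (solid bars) and of expected counts (hatched bars) in embryo 1 (blue) and embryo 2 (orange). Elavl4-211 leads by TPM at 40.75% and 37.8%, and Elavl4-202 leads by counts at 51.6% and 52.8%.

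The leading model by TPM was the same in both embryos for all 7 genes that have more than 1 model. Over all such genes at a mean of at least 5 TPM it differed for 8.28%. Celf2 was led by Celf2-206, a protein-coding model of 5470 nt with 62.26% and 55.44% of the TPM, followed by Celf2-214 of 8856 nt with 11.62% and 11.79%. Elavl2 was led by Elavl2-209, with 35.92% and 42.18% of the TPM, followed by Elavl2-201 with 21.15% and 17.84%. Msi1 was led by Msi1-208, which held 92.69% and 91.37% of the TPM. Its next model, Msi1-203 of 807 nt, held 4.18% and 3.38%. Msi1 was thus close to a gene of 1 model, while Celf1 was spread over several, with 28.51% and 29.99% on Celf1-203, its leading model. Celf4 was split between Celf4-201 at 81.23% and 80.43% and Celf4-202 at 18.77% and 19.57%.

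Msi2 was the gene whose models differed most between the embryos. Its leading model, Msi2-203 of 6436 nt, held 77.29% of the TPM in embryo 1 and 60.99% in embryo 2, 16.3 points apart. By counts the share was 92.2% (95% Wilson interval 90.9 to 93.3) and 84.6% (82.6 to 86.4). Msi2-207, which retains an intron, had 11.74% and 17.02% of the TPM, and Msi2-205, which also retains one, had 5.5% and 9.72%. The protein-coding model Msi2-201 of 1855 nt was also higher in embryo 2, with 4.83% and 9.75%. These small models rested on few reads, 73.03 and 85.14 counts for Msi2-207, 50.16 and 71.23 for Msi2-205, and 31.98 and 51.91 for Msi2-201. No member had a model that moved by 20 points, as 5.36% of genes with several models did. A move of 10 points or more was seen for 1 of the 7 members with several models, Msi2, and for 24.5% of all such genes.

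The 4 alternative exons printed above were mostly included. The 39-nt exon of Elavl2 was held by models with 81.49 and 89.39 TPM and skipped by models with 20.64 and 17.11 TPM, so that 79.8% and 83.9% of the TPM with a choice carried it (81.9 ± 2.93, SD, n = 2). The matching exon of Elavl4 was carried by 96.4% and 96.1% (96.3 ± 0.173), or by 92.2% and 92.1% when only protein-coding models were counted. The share was higher in Elavl4 than in Elavl2 in both embryos, a difference that was not tested. Only Elavl4-207 skips the Elavl4 exon, with 561.27 and 437.95 counts. It is also the only model that starts at 110351909 of chromosome 4, so for Elavl4 the exon and the start cannot be told apart.

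The 144-nt exon of Celf2 was carried by 79.4% and 79.6% of the TPM with a choice (79.5 ± 0.138). The model that skips it with the most counts, Celf2-214, also differs from Celf2-206 in its last exon, which runs on through the intron before it. For that model the choice of exon and the choice of 3′ end cannot be told apart. Celf2-224 and Celf2-226 skip the exon too, with 434.85 and 320.31 counts and with 145.37 and 112.26 counts. The 57-nt exon of Msi1 was carried by 94.2% and 94.7% (94.5 ± 0.35), or by 98.6% and 98.7% of the counts. Only the short models Msi1-203 and Msi1-204 skip it, with 47.3 and 37.04 counts together. Both start outside the region where Msi1-208 starts, so for Msi1 too the exon and the start cannot be told apart. A further 2 exons of Celf2 had a choice. One of 197 nt was carried by 99.7% in both embryos. One of 41 nt was carried by 10.9% and 22.9%, on only 64.41 and 119.34 counts. Celf2-228, annotated as a nonsense-mediated decay model, is the only model that holds the 41-nt exon. It is also the only model that starts at 6872597 of chromosome 2, so here too the exon and the start cannot be told apart.

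**Figure D4:**
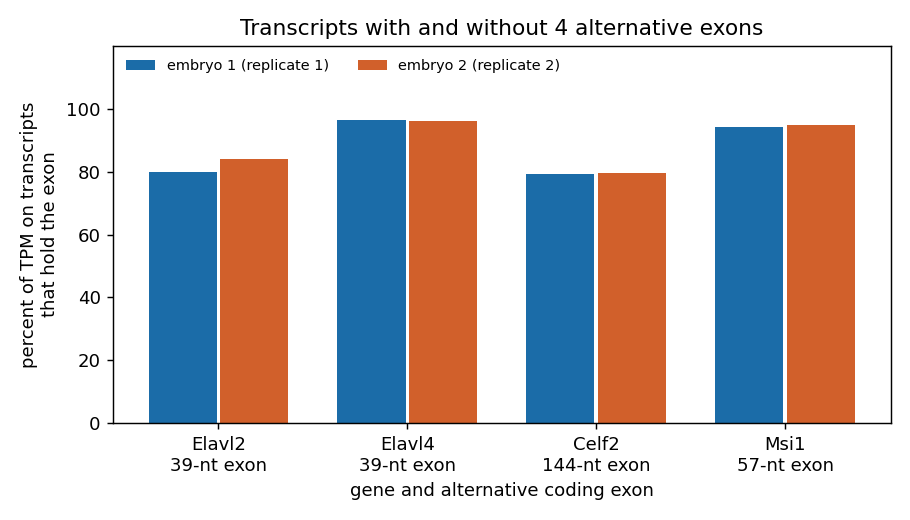
Percent of TPM on transcript models that hold the alternative exon, out of models that hold or skip it, in embryo 1 (blue) and embryo 2 (orange). Elavl2 (79.8 and 83.9) and Celf2 (79.4 and 79.6) lie below Elavl4 (96.4 and 96.1) and Msi1 (94.2 and 94.7).

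The models also differ in where they start. In Elavl2, 5 models starting between 91376307 and 91376496 of chromosome 4 held 63.3% and 69.9% of the TPM, and 4 models starting between 91371956 and 91372069 held 33.1% and 25.9%. These are the regions whose upstream sequences are printed above. In Celf2, 8 models that start between 6884628 and 6884996 of chromosome 2 held 80.8% and 78.6% of the TPM. In Celf1, 8 models starting between 90940382 and 90940543 of chromosome 2 held 67.0% and 70.0%. In Msi1, 3 models starting between 115429599 and 115429997 of chromosome 5 held 94.0% and 94.5%. In Elavl4 the start at 110287527 of chromosome 4, used by Elavl4-202, held 25.6% and 29.2% of the TPM but 53.3% (95% Wilson interval 52.3 to 54.2) and 54.3% (53.1 to 55.4) of the counts. Start sites were read from the models and were not measured.

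Between the embryos none of the 10 genes passed the 1.5-fold threshold with intervals apart. The background was 4.02% of the 10958 genes at a mean of at least 5 TPM (3.55% higher in embryo 2). A share that low can leave none of 10 genes passing, so the result does not set the members apart. At 2-fold the background was 0.31%, and again no member passed. Celf4 came nearest, with a log2 ratio of TPM + 1 of 0.58 (embryo 2 over embryo 1) and a TPM ratio of 1.498, just under the threshold. Elavl3, Celf2 and Celf1 followed with 0.36, 0.34 and 0.32, and Elavl4 was at -0.04. Without any fold threshold, intervals were apart for 7 of the 10 genes, all higher in embryo 2 on the TPM scale (only Elavl3 and Celf4 with spike-in scaling), against 45.9% of all genes in either direction and 37.5% higher in embryo 2. The 7 were Elavl1, Elavl2, Elavl3, Celf1, Celf2, Celf4 and Msi1.

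**Figure D5:**
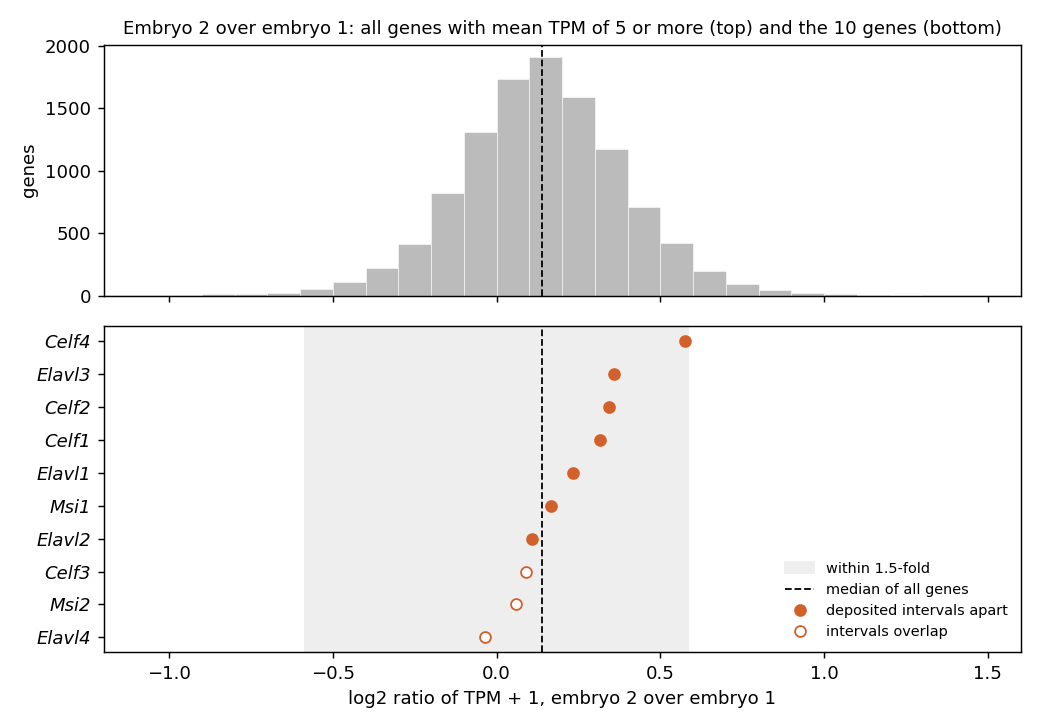
Log2 ratio of TPM + 1, embryo 2 over embryo 1, as a histogram of the 10958 genes whose mean was at least 5 TPM (top) and for each of the 10 genes (bottom), with the median of all genes dashed and the range within 1.5-fold in grey. On this scale Celf4 is highest at 0.58 and Elavl4 lowest at -0.04, and the median of all genes is 0.14. With spike-in scaling 2 of the 10 genes are higher in embryo 2 in place of 9.

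The direction of these ratios depended on the scaling. With TPM, 9 of the 10 genes were higher in embryo 2, as were 72.4% of all genes, whose median log2 ratio was 0.14. With TMM or DESeq2 size factors on the counts, 5 of the 10 were higher, and the median of all genes was -0.03 and -0.04. With the spike-in total as the scale, 2 of the 10, Elavl3 and Celf4, were higher, and the median of all genes was -0.19. The median of the 10 genes lay 0.06 above that of all genes with TPM and 0.05 above it with each of the other 3 scalings. Msi2, at 0.06 with TPM, was the lowest of the 10 with the others, at -0.33 with TMM and with DESeq2 size factors and at -0.48 with the spike-in total, whereas Celf4 stayed the highest at 0.40, 0.40 and 0.25. TPM also divides by the deposited effective length of a gene, for Msi2 5313 nt in embryo 1 and 4567 nt in embryo 2. The other 3 scalings act on the counts with no division by length, for Msi2 2005 and 1385 counts. Relative to the median of all genes with TPM, Celf4 stood 0.44 higher and Elavl4 0.17 lower on the log2 scale.

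Other regulators and messages of the same biology were set beside the 10 genes. The other Celf genes, Celf5 and Celf6, also known from the nervous system, were at 52.7 ± 7.97 and 14.4 ± 4.02 TPM (SD, n = 2). The Muscleblind genes, splicing regulators that often act against Celf proteins, ran from Mbnl1 at 41.6 ± 7.90 TPM through Mbnl2 at 11.6 ± 1.58 to Mbnl3 at 2.71 ± 0.834. All 4 Celf members were thus above the highest Muscleblind gene in both embryos. The 9 genes of proteins that bind AU-rich elements or silence messages had a median of 34.0 TPM. They were led by Tia1, a stress granule protein gene, at 242 ± 17.8 TPM and Hnrnpd (AUF1) at 132 ± 0.396, with Zfp36l2, a decay factor gene, lowest at 4.97 ± 0.453. Of these 9, only Zfp36 (tristetraprolin) passed the 1.5-fold call between embryos on the TPM scale, at 4 and 6.6 TPM (155 and 197 counts).

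Messages that Elavl or Musashi proteins are known to bind or regulate were all detected, 9 of 9 at 1 TPM or more in both embryos, with a median of 21.1 TPM. Gap43, a growth cone gene whose message Elavl4 stabilises, was at 689.64 and 829.79 TPM (760 ± 99.1, SD, n = 2). Mycn, a proto-oncogene of progenitors, was at 86 and 112.51 TPM (99.3 ± 18.7). The lowest by its mean was Bdnf, a neurotrophin gene, at 1.66 and 2.47 TPM. The messages thus ran from far above the 10 genes to far below them. Ache, which encodes acetylcholinesterase, was the only one called at 1.5-fold on the TPM scale, with 5.76 and 9.29 TPM (272 and 346 counts). Numb, the classical Musashi target, was at 10.45 and 13.73 TPM. Whether the proteins bound these messages here was not measured.

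The cell type markers give the setting of these levels. Neuron markers had a median of 144 TPM, led by Tubb3 at 1576 ± 128 TPM and Stmn2 at 601 ± 99.98 TPM, with Rbfox3, a gene of more mature neurons, lowest at 25.1 ± 2.98. Their sum was 2599 TPM in embryo 1 and 3122 in embryo 2, and all 8 were higher in embryo 2 by TPM (7 by TMM, 5 by the spike-in total), with a median log2 ratio of 0.37. Of the 8, Snap25, a gene of synaptic vesicle release, passed the 1.5-fold call on the TPM scale, at 44.34 and 72.93 TPM (1840 and 2337 counts). Progenitor markers had a median of 53.4 TPM, led by Fabp7 at 1300 ± 51.3 TPM and Vim at 559 ± 58.9 TPM, with Hes1, a Notch target gene, lowest at 15.01 ± 2.90. Their sum was 2121 and 2117 TPM, and 3 of the 8 were higher in embryo 2 by TPM (1 by TMM, 0 by the spike-in total), with a median log2 ratio of -0.17. Markers of red blood cells summed to 4298 and 5523 TPM, and among them Alas2, a gene of heme synthesis, passed the 1.5-fold call at 19.56 and 36.87 TPM. Those of meninges and fibroblasts summed to 207 and 274 TPM, with Col1a1 called at 2-fold, at 17.12 and 35.51 TPM (2285 and 3648 counts). The calls of single genes named here and above are given on the TPM scale only, on which 72.4% of all genes were higher in embryo 2. With TMM, 15 genes in place of 34 were called at 2-fold. The part of these marker differences in the ratios of the 10 genes was not tested.

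Some of the genes overlap another gene on the opposite strand, and whether counting used the strand is not given in the sources used here. The overlapping genes with values in the files carried few counts beside the members. The opposite-strand genes of Celf4 (Gm3227 and 0710001A04Rik) and of Msi1 (4930430O22Rik) had no values, so their overlap could not be assessed. The same holds for Gm49318, a protein-coding gene that overlaps Elavl3 on the same strand. Celf3 overlaps Riiad1, with 185 and 117 counts, and Elavl1 overlaps Ccl25, with 170 and 157 counts. The opposite-strand genes of Msi2 carried 34 and 20 counts, those of Celf2 18.96 and 18.5, and that of Elavl2 9 and 8. For Celf3 itself the counts were 3708 and 3040, and for Elavl1 9402 and 8527.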

How the data were processed

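Total RNA-seq tables of 2 forebrain libraries were used. The labels' protocols name Ambion mirVana for extraction, 10 ng of RNA over 200 nt for each library, added spike-ins and a linked Smart-seq protocol. Per the file headers, the authors deposited expected counts, TPM, FPKM and, as a percent, each transcript's share of its gene's TPM. The deposited posterior mean TPM and interval bounds were read as signal. The files' notes name assembly mm10 and GENCODE M4. The aligner, quantification program and versions are not given in the sources used here. Names, types and exons came from GENCODE M21, also GRCm38, by ID without version. All 91 member transcripts matched, and 88 had the deposited length, the exceptions being Elavl1-201, Elavl3-201 and Celf4-201.

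The members and lists were chosen with earlier results of these data known. Genes named were all 10 members, the 2 highest and the lowest genes (by mean TPM) of each list and any called between embryos, and the 2 leading transcripts of each member. Numb, Alas2, Col1a1 and other transcripts, exons and overlapping genes were named after their values were seen. Embryos were called different at a mean TPM of 5 or more, a 2-fold (or 1.5-fold) ratio of TPM + 1, and deposited intervals apart, and pairs where intervals were apart in both libraries in 1 direction with no pseudocount. An exon was in or out where models that share both its neighbouring splice sites hold or skip it. Starts within 500 nt of the next formed a region. Scalings were TPM, posterior mean, edgeR 4.0.16 TMM and DESeq2 1.42.0 size factors on expected counts (rounded to whole values first), and the spike-in total (659036 and 640659 counts). The call between embryos was tested on simulated data, for the 2-fold rule only. Those data held counting error and no spread between embryos, so the test does not cover that spread or the 1.5-fold rule.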

Additional observations from a re-analysis of the deposited data

How the results depend on the processing

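No paired analysis was possible because there is 1 group of 2 libraries and no replicate number is shared between groups. The median level of the 10 genes was 46.1 as FPKM and 89.8 as TPM over nuclear protein-coding genes only. It ranged from 63.6 without embryo 2 to 81.7 without embryo 1. Of 13 within-family pairs, 9 were apart by intervals and 7 by 1.5-fold in both libraries. By 1.5-fold, 4 were apart with protein-coding models only, 4 with those of 1000 nt or more, and 6 with counts not divided by length. Leaving out 1 library gave 10 to 12, but a rule on 1 library alone cannot give fewer than the 9 apart in both. With counts not divided by length, Elavl1 over Elavl2 turned to 0.11 and Elavl1 over Elavl4 to 0.025 (log2), and with coding models of 1000 nt or more Elavl2 over Elavl4 turned to 0.28. The genes called at 2-fold between embryos numbered 34, and 62 with no minimum TPM, 59 with a minimum of 1, 15 with TMM and 15 with DESeq2 factors. They numbered 441 at 1.5-fold and 5034 with intervals apart and no fold, and the last rule called 7 members. By share of counts, 0 members were led by a non-coding model, against 1 by TPM. At 10 points in place of 20, 1 member had a moving transcript. The leading transcript differed for 10.8% of genes with a minimum TPM of 1. The rules of 10 points, of no fold and of models of 1000 nt or more were chosen after seeing the data. The cause of these shifts was not tested, apart from the looser or stricter rule itself. Depth limits the rare models, such as Msi2-205 with 50.16 and 71.23 counts.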
